A study of Homo sapiens with 32 samples.

Results

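The difference between EGF and NRG-1 in how transcript levels moved from 1 hour to 4 hours was measured in LNCaP cells, an androgen-dependent prostate cancer line grown from a metastatic lymph node. For each gene, the ligand by time interaction is the log2 change from 1 to 4 hours with EGF minus the same change with NRG-1. It used 16 of the 32 libraries of the series, in 4 groups of 4: EGF for 1 hour, NRG-1 for 1 hour, EGF for 4 hours, and NRG-1 for 4 hours. All 4 groups had been kept since the day before in serum treated with charcoal to deplete steroid hormones (charcoal-stripped serum, CSS) when either ligand was added at 100 ng/mL, so that no group saw a ligand in full serum. Cells in CSS without ligand, also in 4 libraries, are given as the starting level and do not enter the interaction. Each group held 2 libraries in each of 2 batches.

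EGFR is the receptor for EGF, and HER3 (*ERBB3*) and HER4 (*ERBB4*) are those for NRG-1. Each can pair with HER2 (*ERBB2*) once its ligand is bound. Both routes activate the RAS–ERK and PI3K–AKT pathways. Immediate early genes such as *FOS* and *EGR1* are switched on by ERK without new protein synthesis, and their transcripts are usually short-lived. Delayed genes, among them phosphatases and mRNA decay factors that act back on the pathway, follow. A positive interaction means that a transcript fell less, or rose more, after EGF than after NRG-1, and a negative interaction means the reverse.

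The expected counts of the 16 libraries summed to between 65936153 and 92397749 per library (median 75014782). Levels are given as CPM, the count scaled by the library's total after TMM adjustment. They carry no correction for transcript length and are compared only within a gene. Of the luminal markers of LNCaP cells, *KLK3* was at 112 to 266 CPM and *KRT8* at 705 to 1742 CPM. The 3 basal markers summed to at most 0.254 CPM. Of the leukocyte markers, *PTPRC* was at most 0.0919 CPM and *LYZ* at most 0.0766 CPM, and *CD3E* was at 0. Of the 3 endothelial markers, *CDH5* was at 0. *VWF* was at 3.79 to 13.6 CPM, and the sum of the list was lower at 4 hours with either ligand (3.80 to 6.57 CPM with EGF and 4.43 to 7.64 CPM with NRG-1) than at 1 hour (9.57 to 13.5 and 8.24 to 13.6 CPM). The 5 fibroblast markers summed to 11.7 to 18.5 CPM, although 2 of the 5 were under 0.1 CPM in every library. The part of these markers in the results was not tested. Replicate 2 of batch 2 stood apart in both NRG-1 groups and, by less, with EGF at 4 hours. With NRG-1, it differed from its group with a chi-square per degree of freedom over all genes of 118 to 171 at 1 hour and 122 to 222 at 4 hours. The other pairs of those groups were at 20.0 to 49.3 and 16.3 to 39.4. With EGF at 4 hours, its pairs were at 76.3 to 90.5, against 6.60 to 47.3 for the other pairs. Without its NRG-1 library of 1 hour or of 4 hours, 95 or 73 genes were called for the interaction in place of 86. Of the 86, 77 or 66 were among them. Without its EGF library of 4 hours, 78 genes were called, 69 of them among the 86. The labels call the libraries of a group biological replicates without saying whether they were separate cultures. *P* values therefore measure the spread between libraries of a group, estimated over all 32 libraries and not only the 16 of the interaction. In bulk RNA, fewer cells that express a gene and less RNA per cell cannot be told apart.

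Of 16995 genes tested, 26 had a positive interaction and 60 a negative one at an adjusted *P* below 0.05 (edgeR quasi-likelihood test, Benjamini-Hochberg adjustment over all genes tested), which is 0.153% and 0.353% of the genes. With a log2 interaction beyond 1 as well, 4 genes were DEGs in the positive direction (0.0235%) and 10 in the negative direction (0.0588%). An unadjusted *P* below 0.05 was reached by 1049 genes. Leaving out EGF 1 hour batch 1 replicate 1 or replicate 2 lowered the 10 negative DEGs to 5 or 6. Without NRG-1 1 hour batch 1 replicate 2, 17 genes in place of 26 were called in the positive direction. With each replicate number of each batch as a block in place of the batch term, 51 positive and 109 negative genes were called, all 86 among them.

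Against this small number, most of the time course was shared. From 1 to 4 hours, 3658 genes fell (21.5%) and 3826 rose (22.5%) with EGF, and 3140 fell (18.5%) and 3234 rose (19%) with NRG-1. Across all genes tested, the log2 changes with the 2 ligands had a Pearson *r* of 0.818 and a Spearman *ρ* of 0.796, and 83.8% of genes had the same sign. Over the 1621 genes that passed both thresholds with either ligand, *r* was 0.900, the slope of the EGF change on the NRG-1 change was 0.977, and 96.9% had the same sign. These values run across genes, which are not independent replicates, and the 2 changes share batches but no library. The plot of the EGF change against the NRG-1 change shows the 86 called genes on either side of the line of equal change.

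**Figure D1:**
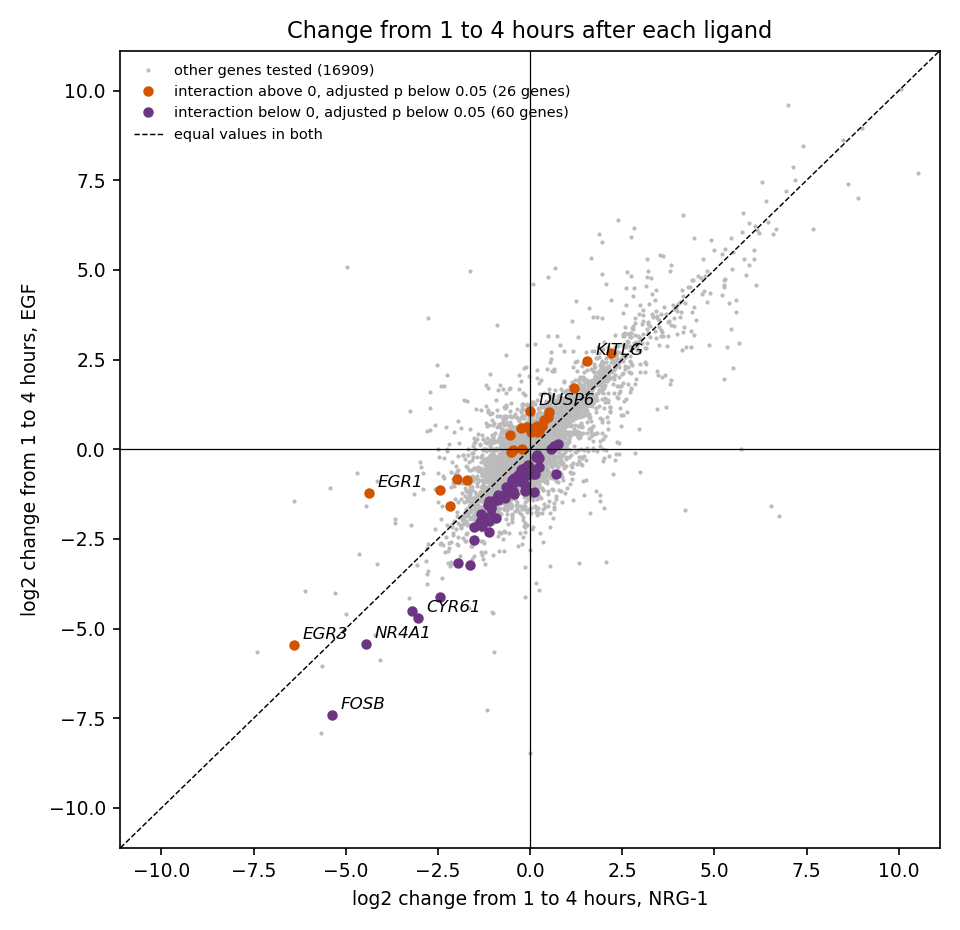
Log2 change from 1 to 4 hours with NRG-1 (x axis) and with EGF (y axis) for each gene tested, with the dashed line marking equal change. The 26 genes with a positive interaction (orange) lie above the line and the 60 with a negative one (purple) below it, beside the other genes in gray.

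The called genes took different courses. Of the 60 genes with a negative interaction, 57 fell with EGF and 43 fell with both ligands, and 42 of the 60 were higher with EGF than with NRG-1 at 1 hour (0.941% of all genes were), against 1 of the 60 at 4 hours (1.25% of all genes). At 4 hours, 16 of them were lower with EGF (0.412% of all genes). Their median difference between EGF and NRG-1 was 0.42 on the log2 scale at 1 hour and −0.17 at 4 hours. Of the 26 genes with a positive interaction, 17 rose and 6 fell with EGF, while 10 rose and 10 fell with NRG-1. At 1 hour, 1 of the 26 was higher and 6 were lower with EGF (0.118% of all genes were lower), and at 4 hours 19 were higher and 1 was lower. Their median difference was −0.11 at 1 hour and 0.50 at 4 hours. These components are made of the same libraries as the interaction and are given as a description of it.

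**Figure D2:**
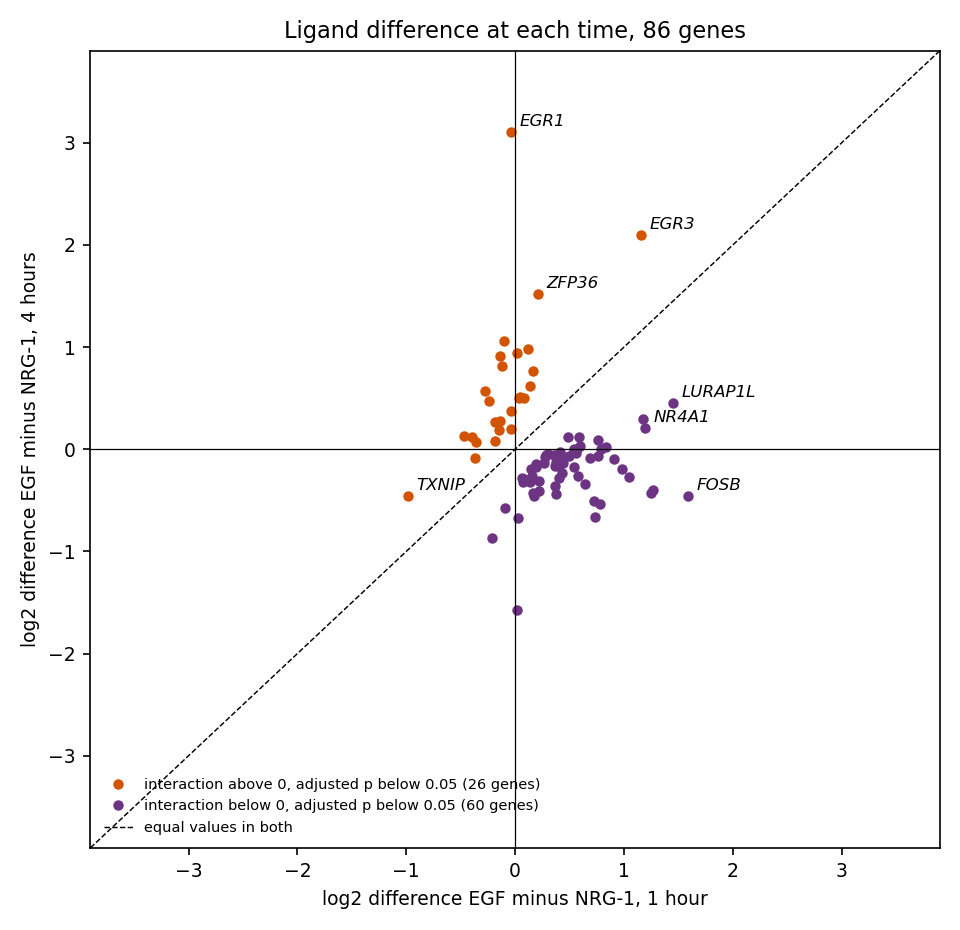
Log2 difference between EGF and NRG-1 at 1 hour (x axis) and at 4 hours (y axis) for the 86 called genes. The 26 genes with a positive interaction have a median difference of −0.11 at 1 hour and 0.50 at 4 hours, and the 60 with a negative one have 0.42 and −0.17.

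Among the called genes, the largest positive interaction was in *EGR1*, the zinc finger transcription factor that is a classic ERK target. The 250 bases before its start are shown because they hold, in capitals, 2 CArG boxes (CC, 6 bases of A or T, GG, the sequence bound by serum response factor) at −105 to −96 and −83 to −74, and an EGR site (GCGNGGGCG) at −198 to −190. The windows of *FHL2* and *GBP1*, described further on, are shown beside it because they are the named genes with a negative interaction that also hold a CArG box, at −59 to −50 and −166 to −157. Sequences are from RefSeq on build GRCh38.p14 and run 5′ to 3′ on the strand of the gene. They cover chr5:138465229-138465478 on the plus strand for *EGR1*, chr2:105399052-105399301 on the minus strand for *FHL2*, and chr1:89065209-89065458 on the minus strand for *GBP1*. Further starts of *FHL2* in the RefSeq table are not shown.
EGR1: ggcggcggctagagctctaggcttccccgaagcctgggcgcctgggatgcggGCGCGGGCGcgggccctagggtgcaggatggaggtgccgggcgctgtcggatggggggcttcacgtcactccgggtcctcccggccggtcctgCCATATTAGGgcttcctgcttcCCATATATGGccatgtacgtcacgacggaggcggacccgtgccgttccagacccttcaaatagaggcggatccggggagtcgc
FHL2: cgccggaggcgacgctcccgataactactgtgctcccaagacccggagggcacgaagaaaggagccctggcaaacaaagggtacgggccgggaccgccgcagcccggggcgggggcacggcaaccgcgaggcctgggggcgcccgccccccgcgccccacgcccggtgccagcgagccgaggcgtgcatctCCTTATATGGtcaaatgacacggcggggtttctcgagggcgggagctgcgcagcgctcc
GBP1: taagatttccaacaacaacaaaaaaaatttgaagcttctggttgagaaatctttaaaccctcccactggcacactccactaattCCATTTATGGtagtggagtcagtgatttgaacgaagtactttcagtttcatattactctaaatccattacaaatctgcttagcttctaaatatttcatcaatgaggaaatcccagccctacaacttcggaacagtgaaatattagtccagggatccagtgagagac

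Motifs were searched on both strands of these windows, and a match is a description of the letters only. A promoter was matched for 18 of the 26 genes with a positive interaction, 51 of the 60 with a negative one, and 12861 of the 16995 tested. Because fewer than 80% of the first and the last set had a sequence, the shares cannot be compared between sets. A CArG box was in the window of 1 of the 18 and 3 of the 51 genes (*FHL2*, *GBP1*, and *RCAN1*, the last outside the rule for named genes), and in 1.53% of the 12861. An EGR site was in 2 and 11 genes and in 16.5% of all matched genes. An AP-1 site (TGANTCA) was in 3 and 6 genes and in 6.51% of all, and a cyclic AMP response element (TGACGTCA) in 0 and 2 genes and in 3.10% of all. *CYR61*, *EGR3*, and *C8orf4* have no entry in the promoter table.

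*EGR1* stood at 1.16 to 1.38 CPM in CSS. At 1 hour it was at 1528, 1605, 1061, and 1070.1 CPM with EGF and at 1626, 1477, 1272, and 1033 CPM with NRG-1, in the order batch 1 replicates 1 and 2 and batch 2 replicates 1 and 2, which is used throughout. At 4 hours the 4 EGF libraries held 632, 656, 490.4, and 474 CPM, and the 4 NRG-1 libraries held 59.8, 59.3, 79.2, and 64.6 CPM. The ligands overlapped at 1 hour, whereas every EGF library was above every NRG-1 library at 4 hours. EGF left 42.8% of the 1-hour mean and NRG-1 left 4.86%. The interaction was 3.14 (log2, SE 0.44, adjusted *P* = 0.000177, edgeR).

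*ZFP36* encodes tristetraprolin, which binds AU-rich elements and promotes decay of the transcripts that carry them. Its level was 117, 111, 97.1, and 94.9 CPM with EGF and 109, 90.0, 89.9, and 72.8 CPM with NRG-1 at 1 hour. At 4 hours it was 49.4, 54.9, 44.1, and 42.7 CPM with EGF and 15.4, 14.8, 19.9, and 16.2 CPM with NRG-1, without overlap, and 45.5% and 18.3% of the 1-hour means were left. The CSS mean was 8.91 ± 0.298 CPM (SD, n = 4). The interaction was 1.31 (SE 0.14, adjusted *P* = 4.99e-06, edgeR). The other members of its family, *ZFP36L1* (−0.29, adjusted *P* = 0.735) and *ZFP36L2* (0.15, adjusted *P* = 1), did not pass.

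*JUNB*, a subunit of the AP-1 transcription factor, was at 232, 211, 225, and 225 CPM with EGF and at 233, 249, 245, and 231 CPM with NRG-1 at 1 hour. By 4 hours it was at 124, 122, 129.5, and 128 CPM with EGF and at 51.6, 53.9, 73.9, and 64.7 CPM with NRG-1. The ranges met at 1 hour and were apart at 4 hours. The interaction was 1.16 (SE 0.17, adjusted *P* = 0.000317, edgeR), a call that was lost without the batch term.

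*IER2*, an immediate early gene for a nuclear protein, kept 55.1% of its 1-hour mean with EGF and 30.4% with NRG-1. Its libraries at 1 hour ran from 199 to 280.2 CPM with EGF and from 177 to 246 CPM with NRG-1, and at 4 hours they were at 145, 137, 126, and 118 CPM and at 71.0, 71.2, 68.3, and 55.7 CPM (interaction 0.86, SE 0.13, adjusted *P* = 0.000478, edgeR). *KLF10*, a zinc finger repressor inducible by TGF-β, showed the same order, with 33.6% and 22.1% left and a smaller interaction of 0.61 (SE 0.12, adjusted *P* = 0.00604, edgeR). Its 4-hour libraries were at 122, 127, 102, and 115 CPM with EGF and at 64.4, 69.0, 68.4, and 72.3 CPM with NRG-1. Neither *IER2* nor *KLF10* was called by limma on log2 TPM at either pseudocount.

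*EGR3* differed from these in that EGF already gave the higher level at 1 hour. It was at 627, 649.6, 364, and 369 CPM with EGF and at 257, 233, 198, and 181 CPM with NRG-1 (difference 1.16, SE 0.11, adjusted *P* = 4.71e-08, edgeR). At 4 hours it was at 15.5, 16.6, 7.20, and 7.04 CPM with EGF and at 3.06, 2.98, 2.26, and 2.13 CPM with NRG-1 (difference 2.09, SE 0.13, adjusted *P* = 1.16e-11). Although both ligands left only 2.31% and 1.20% of the 1-hour means, the ligand difference widened, with an interaction of 0.93 (SE 0.16, adjusted *P* = 0.0021, edgeR). It was not called without the batch term or by limma on TPM. *EGR2* (0.41, adjusted *P* = 1) and *EGR4* (1.75, adjusted *P* = 0.266) did not pass.

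**Figure D3:**
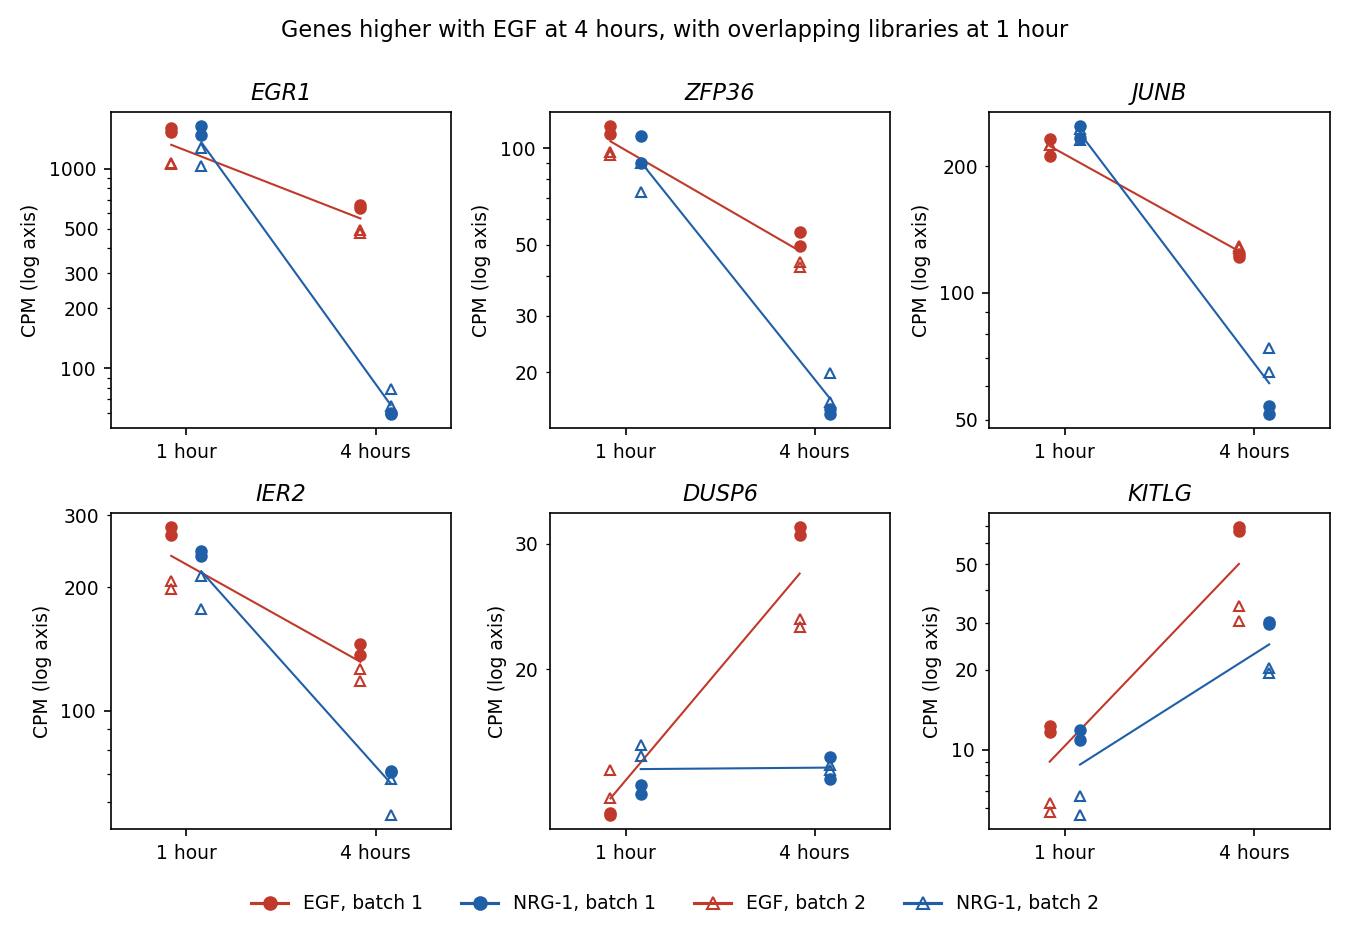
CPM (log axis) at 1 and 4 hours with EGF and NRG-1 for 6 genes with a positive interaction. Each point is a library (filled circles, batch 1, and open triangles, batch 2), and lines join group means, as for *EGR1*, where EGF left 42.8% and NRG-1 4.86% of the 1-hour mean.

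A second group with a positive interaction did not fall after 1 hour with EGF. *DUSP6*, the phosphatase that dephosphorylates ERK in the cytoplasm, was at 12.5, 12.5, 13.2, and 14.4 CPM with EGF and at 13.4, 13.7, 15.1, and 15.7 CPM with NRG-1 at 1 hour, above the CSS range of 0.630 to 0.862 CPM. By 4 hours it was at 31.7, 30.9, 22.9, and 23.5 CPM with EGF but at 14.0, 15.0, 14.4, and 14.7 CPM with NRG-1. It rose with EGF by 1.05 on the log2 scale (adjusted *P* = 4.09e-09), and its NRG-1 change was 0.01 (adjusted *P* = 0.971), which gave an interaction of 1.05 (SE 0.15, adjusted *P* = 0.000317, edgeR).

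*KITLG*, the ligand of the KIT receptor, rose with both ligands, to 557% of the 1-hour mean with EGF and 284% with NRG-1. Its 1-hour libraries were at 11.6, 12.3, 5.81, and 6.29 CPM with EGF and at 11.8, 10.9, 5.67, and 6.70 CPM with NRG-1, and the 4-hour libraries at 66.6, 68.9, 30.5, and 34.7 CPM with EGF and at 29.7, 30.4, 19.4, and 20.2 CPM with NRG-1. Batch 1 was above batch 2 in every group, so that the 4-hour libraries of the ligands came within 0.1 CPM of each other across batches, while they lay well apart within each batch. The interaction was 0.92 (SE 0.14, adjusted *P* = 0.000317, edgeR), a call that was lost without the batch term.

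*HES1*, a transcriptional repressor and Notch target, moved in opposite directions. It rose from a mean of 7.53 ± 1.27 to 9.73 ± 0.622 CPM with EGF (SD, n = 4) and fell from 8.18 ± 0.933 to 5.57 ± 0.534 CPM with NRG-1. The rise with EGF was mostly in batch 1, from 6.44 to 10.3 CPM, against 8.62 to 9.20 CPM in batch 2. With NRG-1 the batch means fell from 7.53 to 5.42 CPM and from 8.83 to 5.73 CPM. The 4-hour libraries, at 10.2, 10.4, 9.18, and 9.22 CPM and at 5.08, 5.75, 6.25, and 5.21 CPM, did not overlap (interaction 0.94, SE 0.15, adjusted *P* = 0.00048, edgeR). It was not called by limma on TPM with a pseudocount of 0.1. *SNAI1*, which encodes a repressor of E-cadherin, was at 3.58, 3.29, 3.80, and 3.58 CPM with EGF and at 2.35, 2.25, 2.60, and 2.44 CPM with NRG-1 at 4 hours, after ranges that overlapped at 1 hour (1.65 to 3.20 and 2.02 to 3.58 CPM). Its interaction was 0.84 (SE 0.17, adjusted *P* = 0.00924, edgeR).

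*NR1D1*, the circadian repressor REV-ERBα, rose to 154% of its 1-hour mean with EGF (adjusted *P* = 2.4e-06) and was at 93.6% with NRG-1 (adjusted *P* = 0.469). The interaction was 0.72 (SE 0.13, adjusted *P* = 0.00332, edgeR). *ELL2*, an androgen-responsive elongation factor for RNA polymerase II, was at 63.96, 63.8, 50.1, and 56.5 CPM with EGF at 4 hours, above all NRG-1 libraries at 41.1, 40.7, 39.2, and 43.3 CPM and above its CSS range of 37.7 to 42.5 CPM. Its interaction was 0.46 (SE 0.08, adjusted *P* = 0.00294, edgeR). *SNAI1*, *NR1D1*, and *ELL2* were among the genes not called by limma on TPM. *SNAI1* and *ELL2* were also not called when only the 16 libraries were fitted. *SNAI1* and *NR1D1* were not called without the batch term, and *SNAI1* was not called with batch 1 alone.

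Among the genes with a negative interaction, the most common course was a higher level with EGF at 1 hour that was no longer called at 4 hours, found in 37 of the 60. *FOSB*, an AP-1 subunit, had the largest negative interaction of the named genes that were called. At 1 hour it was at 185, 189.6, 108, and 113 CPM with EGF and at 56.6, 55.5, 45.4, and 39.5 CPM with NRG-1. At 4 hours all libraries were low, at 0.969, 0.842, 0.806, and 0.857 CPM with EGF and at 0.988, 0.702, 1.57, and 1.53 CPM with NRG-1, and overlapped, close to the CSS mean of 0.736 ± 0.269 CPM (SD, n = 4). The share left was 0.583% with EGF and 2.43% with NRG-1, and the interaction was −2.05 (SE 0.33, adjusted *P* = 0.000604, edgeR).

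*CYR61* (CCN1), a secreted matricellular protein and a target of serum response factor and YAP, was at 227, 215, 136, and 142 CPM with EGF and at 59.0, 72.4, 73.1, and 90.7 CPM with NRG-1 at 1 hour. At 4 hours it was at 7.00, 6.90, 6.28, and 7.09 CPM with EGF and at 8.05, 8.92, 9.25, and 9.62 CPM with NRG-1. The EGF libraries were thus all above the NRG-1 libraries at 1 hour and all below them at 4 hours, although the 4-hour difference of −0.40 did not pass over all genes (adjusted *P* = 0.156). The interaction was −1.66 (SE 0.18, adjusted *P* = 4.99e-06, edgeR).

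*ATF3*, a stress-inducible partner of AP-1, was at 810.3, 764, 529, and 590.2 CPM with EGF and at 333, 319, 274, and 376 CPM with NRG-1 at 1 hour. By 4 hours it was at 26.6, 25.1, 30.9, and 34.8 CPM and at 27.0, 27.9, 38.0, and 48.5 CPM, which overlapped and lay under the CSS range of 49.7 to 57.9 CPM. The interaction was −1.32 (SE 0.24, adjusted *P* = 0.00276, edgeR). *NR4A1*, an orphan nuclear receptor, was at 603, 606, 443, and 428 CPM with EGF and at 256, 248, 208, and 193 CPM with NRG-1 at 1 hour. It was down to 2.29% and 4.57% of these means at 4 hours, with an interaction of −0.99 (SE 0.14, adjusted *P* = 0.000177, edgeR). The 4-hour means were 11.9 CPM with EGF and 10.3 CPM with NRG-1, against 8.62 CPM in CSS. Their difference of 0.21 did not pass (adjusted *P* = 0.441, edgeR), so the ligands differed mainly at 1 hour.

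*C8orf4* was at 23.8, 24.1, 18.5, and 19.6 CPM with EGF and at 7.09, 7.21, 8.69, and 13.1 CPM with NRG-1 at 1 hour, and at 0.768 to 1.62 and 1.42 to 2.05 CPM at 4 hours (interaction −1.68, SE 0.28, adjusted *P* = 0.000967, edgeR). *DNAJB4*, an HSP40 cochaperone, was at 148, 142, 132, and 143 CPM with EGF and at 64.3, 59.5, 81.5, and 99.0 CPM with NRG-1 at 1 hour. By 4 hours its libraries lay at 23.4 to 25.5 CPM with EGF and 25.2 to 29.2 CPM with NRG-1, near the CSS range of 21.4 to 24.3 CPM (interaction −1.004, SE 0.14, adjusted *P* = 0.000177, edgeR).

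*ERRFI1* encodes MIG6, an inhibitor that binds the EGFR kinase. It was at 253, 258, 183, and 184 CPM with EGF and at 99.3, 87.2, 97.1, and 102 CPM with NRG-1 at 1 hour, and at 59.3, 60.0, 48.5, and 49.5 CPM and 45.0, 44.5, 41.8, and 45.6 CPM at 4 hours. It stayed higher with EGF at both times, by 1.18 (SE 0.07, adjusted *P* = 4.08e-11) and then by 0.29 (SE 0.07, adjusted *P* = 0.0367), so the ligand difference narrowed without closing. The interaction was −0.88 (SE 0.10, adjusted *P* = 1.71e-05, edgeR).

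**Figure D4:**
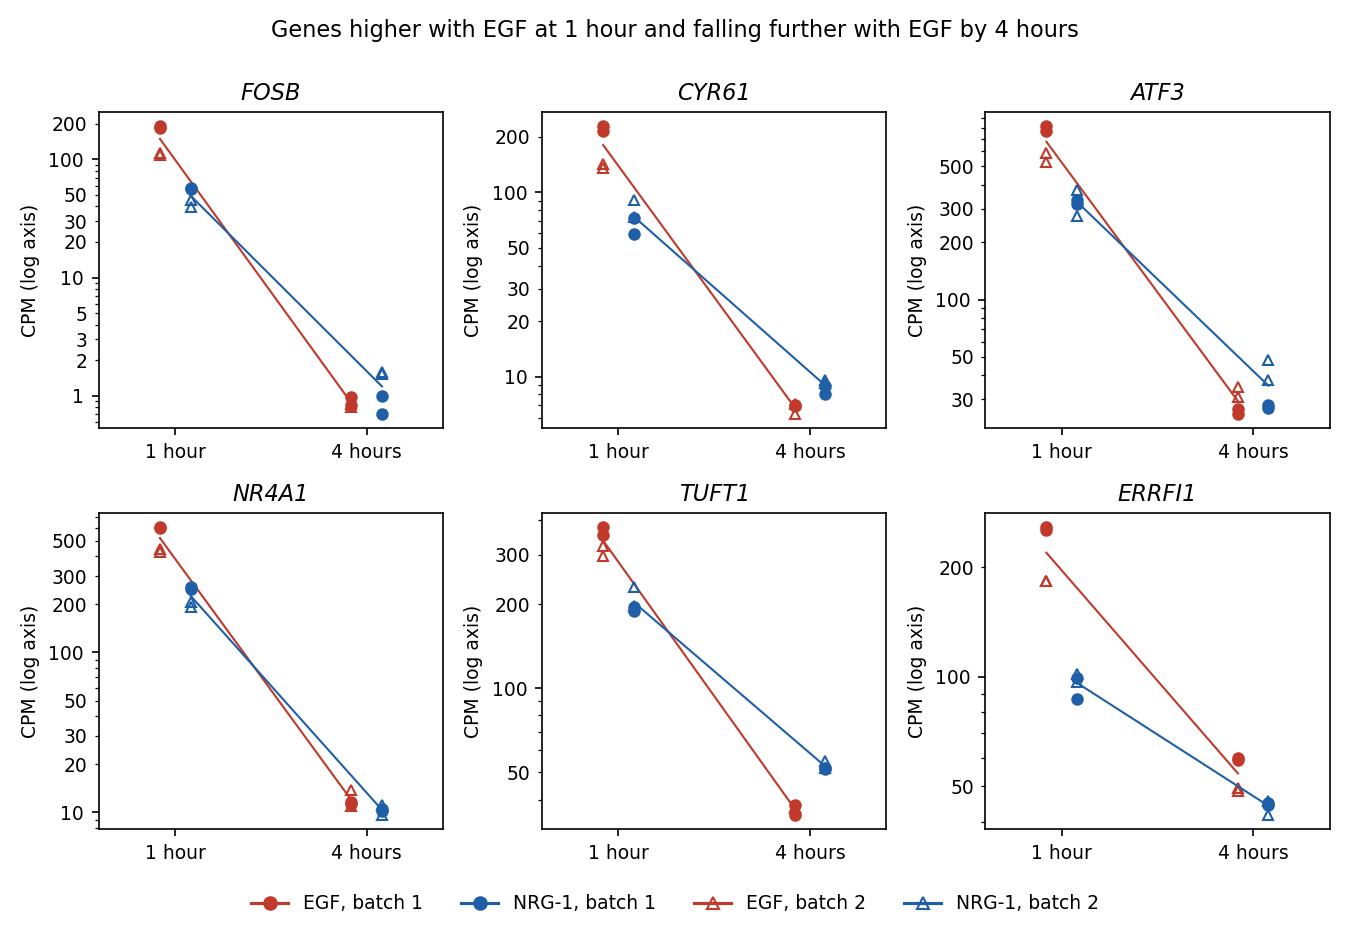
CPM (log axis) at 1 and 4 hours with EGF and NRG-1 for 6 genes with a negative interaction. Each point is a library (filled circles, batch 1, and open triangles, batch 2), and lines join group means, as for *FOSB*, where 0.583% of the 1-hour mean was left with EGF and 2.43% with NRG-1.

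In 4 of the 60 genes the ligands changed places with the difference called at both times. These were *TUFT1*, *GCNT1*, *FERMT2*, and *STBD1*, higher with EGF at 1 hour and lower with EGF at 4 hours. In others, such as *CYR61* (1.27, then −0.40) and *PPP1R3B* (0.65, then −0.34), the difference also changed sign but was not called at 4 hours. *TUFT1*, which encodes tuftelin, had the smallest adjusted *P* of all genes for the interaction (−1.23, SE 0.10, adjusted *P* = 3.2e-08, edgeR). It was at 353, 376, 297, and 321 CPM with EGF and at 189, 195, 197, and 230.4 CPM with NRG-1 at 1 hour. At 4 hours it was at 38.3, 35.3, 37.5, and 37.3 CPM with EGF, under every CSS library (48.5 to 55.8 CPM), and at 51.6, 51.8, 52.0, and 54.8 CPM with NRG-1, within the CSS range. The ligands did not overlap at either time.

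*GCNT1*, an enzyme that branches mucin-type O-glycans, was at 78.9, 84.4, 72.5, and 72.5 CPM with EGF and at 60.6, 53.2, 63.7, and 58.1 CPM with NRG-1 at 1 hour. At 4 hours the order was turned, with 51.3, 53.9, 45.2, and 43.0 CPM with EGF and 74.3, 68.9, 61.5, and 57.4 CPM with NRG-1. It fell by 0.68 with EGF (adjusted *P* = 5.39e-09), and its NRG-1 change was 0.14 (adjusted *P* = 0.127). The interaction was −0.82 (SE 0.10, adjusted *P* = 2.69e-05, edgeR).

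*FERMT2*, the integrin activator kindlin-2, fell to 71.4% of its 1-hour mean with EGF (adjusted *P* = 9.77e-06) and rose to 118% with NRG-1 (adjusted *P* = 0.0167), with an interaction of −0.73 (SE 0.11, adjusted *P* = 0.000478, edgeR). Its libraries were at 74.1, 71.8, 62.8, and 69.4 CPM with EGF and at 54.6, 48.8, 50.7, and 60.6 CPM with NRG-1 at 1 hour, and at 52.2, 52.1, 45.0, and 49.2 CPM and 62.6, 62.2, 60.5, and 68.7 CPM at 4 hours. *STBD1*, a glycogen-binding protein outside the rule for named genes, had an interaction of −0.36 (adjusted *P* = 0.00191) with differences of 0.19 and −0.17.

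*INSIG1*, an endoplasmic reticulum protein that retains the sterol sensor SCAP, was the called member of the 12 cholesterol synthesis genes. Its ligand groups overlapped at 1 hour (93.9 to 116 CPM with EGF and 97.9 to 131 CPM with NRG-1), and at 4 hours it was at 93.8, 91.2, 87.1, and 87.2 CPM with EGF and at 119, 131, 138, and 149 CPM with NRG-1, without overlap. It fell by 0.23 with EGF and rose by 0.24 with NRG-1 (adjusted *P* = 0.0134 and 0.0107), and the interaction was −0.48 (SE 0.11, adjusted *P* = 0.031, edgeR). This call was lost when any of 8 libraries was left out: EGF 1 hour batch 1 replicate 1 and batch 2 replicates 1 and 2, EGF 4 hours batch 2 replicate 1, NRG-1 1 hour replicate 1 of either batch, and NRG-1 4 hours replicate 2 of either batch (adjusted *P* from 0.0605 to 0.0924). It was also lost without the batch term, with batch 1 alone, and with limma on TPM.

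A further set had the lower level with EGF at 1 hour. *MYC*, a transcription factor for growth genes, was below its CSS range of 254 to 264 CPM with EGF at 1 hour, at 196, 206, 213, and 217 CPM, while NRG-1 gave 281, 272, 279, and 262 CPM. By 4 hours it was at 418, 433, 433, and 426 CPM with EGF and at 391, 382, 406, and 394 CPM with NRG-1, so that all EGF libraries were below the NRG-1 libraries at 1 hour and above them at 4 hours. The difference passed at 1 hour (−0.39, SE 0.05, adjusted *P* = 1.77e-05) and not at 4 hours (0.12, SE 0.05, adjusted *P* = 0.347), and the interaction was 0.51 (SE 0.07, adjusted *P* = 0.000223, edgeR). It was not called by limma on TPM.

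*TXNIP*, an arrestin that restrains glucose uptake, was at 81.7, 81.3, 63.8, and 58.2 CPM with EGF and at 132, 148, 135, and 139 CPM with NRG-1 at 1 hour, against 388 to 547 CPM in CSS. It rose with both ligands by 4 hours, to 236, 251, 225, and 218 CPM with EGF and 344, 343, 294, and 300.3 CPM with NRG-1, and remained lower with EGF (−0.46, SE 0.07, adjusted *P* = 0.000316). Its interaction was 0.52 (SE 0.10, adjusted *P* = 0.00694, edgeR), larger in batch 2 (0.75) than in batch 1 (0.28). The call was lost with batch 1 alone, without the batch term, and with limma on TPM. *NUAK2*, an AMPK-related kinase, had the larger estimate of 0.67 (SE 0.17) and did not pass (adjusted *P* = 0.091), but was called by DESeq2 (adjusted *P* = 0.0299), with the replicate block (0.00188), and with batch 1 alone (0.0435, edgeR).

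*ARRDC4*, a relative of *TXNIP*, had an interaction of 0.28 (SE 0.07, adjusted *P* = 0.0464, edgeR), and was lower with EGF at 1 hour (47.8 to 56.3 CPM against 58.6 to 72.5 CPM). Its call held when EGF 4 hours replicate 1 of either batch, EGF 1 hour batch 1 replicate 2, or NRG-1 1 hour batch 2 replicate 1 was left out, and was lost on leaving out any of the other 12 libraries (adjusted *P* from 0.0586 to 0.212). It was also lost with no filter on low counts, without the batch term, with group by batch means, with the 16 libraries alone, with batch 1 alone, and with limma on TPM.

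*FHL2*, a LIM-domain coactivator, and *GBP1*, an interferon-inducible GTPase, had calls that depended on single libraries. *FHL2* was at 2.60, 2.42, 3.15, and 2.97 CPM with EGF and at 1.10, 0.929, 2.28, and 2.48 CPM with NRG-1 at 1 hour, and at 1.15, 1.275, 1.297, and 1.07 CPM and 1.04, 1.10, 2.31, and 3.00 CPM at 4 hours. The NRG-1 libraries of batch 2 were above those of batch 1 at both times. Its interaction was −1.31 (SE 0.31, adjusted *P* = 0.0464, edgeR). The call held without any of the NRG-1 4 hours batch 1, NRG-1 1 hour batch 2, and EGF 4 hours batch 1 replicate 2 libraries and was lost without any of the other 11 (adjusted *P* from 0.0549 to 0.168).

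*GBP1* was at 12.0, 11.2, 9.40, and 10.4 CPM with EGF and at 4.19, 4.46, 5.77, and 7.93 CPM with NRG-1 at 1 hour, and at 1.97 to 2.62 and 1.67 to 4.27 CPM at 4 hours (interaction −1.17, SE 0.26, adjusted *P* = 0.027, edgeR). Its call was lost on leaving out any of 9 libraries: the 4 of EGF 1 hour and EGF 4 hours in batch 1, EGF 4 hours batch 2 replicate 1, the 2 of NRG-1 1 hour in batch 1, NRG-1 1 hour batch 2 replicate 1, and NRG-1 4 hours batch 2 replicate 2 (adjusted *P* from 0.0562 to 0.132). *LURAP1L*, at 2.61 to 3.65 CPM with EGF and 0.654 to 1.64 CPM with NRG-1 at 1 hour, had an interaction of −0.9999 (SE 0.24, adjusted *P* = 0.0464, edgeR). Its call held only without EGF 4 hours batch 1 replicate 1, NRG-1 1 hour batch 2 replicate 1 or 2, or NRG-1 4 hours batch 2 replicate 2 and was lost without any of the other 12 (adjusted *P* from 0.0754 to 0.127). *FHL2*, *GBP1*, and *LURAP1L* were also not called without the batch term or with the 16 libraries alone.

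*PPP1R3B*, which targets protein phosphatase 1 to glycogen, was at 58.1, 59.0, 59.7, and 57.7 CPM with EGF and at 31.4, 29.9, 45.1, and 43.6 CPM with NRG-1 at 1 hour. It fell with both ligands and was below its CSS range of 26.5 to 28.9 CPM at 4 hours, at 14.5, 14.8, 15.8, and 17.2 CPM and at 19.4, 19.2, 22.4, and 17.6 CPM, with an interaction of −0.98 (SE 0.15, adjusted *P* = 0.000507, edgeR). *TNFSF15*, a cytokine of the TNF family, fell to 50.4% of its 1-hour mean with EGF and was at 90.1% with NRG-1 (adjusted *P* = 0.221 for that change). Its interaction was −0.84 (SE 0.13, adjusted *P* = 0.000478, edgeR), with 4-hour libraries at 18.9, 19.8, 26.5, and 26.0 CPM and at 28.1, 25.6, 29.5, and 26.0 CPM, which overlapped.

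*GADD45B*, a stress sensor, was at 7.65, 6.99, 7.72, and 8.33 CPM with EGF and at 3.94, 3.27, 4.95, and 5.00 CPM with NRG-1 at 1 hour, and its 4-hour ranges overlapped at 2.74 to 3.46 and 3.03 to 3.48 CPM, near CSS (interaction −0.82, SE 0.14, adjusted *P* = 0.00187, edgeR). *KLF6*, a zinc finger transcription factor, likewise overlapped at 4 hours (18.5 to 19.2 and 17.5 to 22.3 CPM) after 61.8 to 71.2 CPM with EGF and 31.0 to 56.1 CPM with NRG-1 at 1 hour (interaction −0.77, SE 0.15, adjusted *P* = 0.00578, edgeR). Its call was lost without the batch term and with the 16 libraries alone. *RHOB*, a small GTPase, was at 195 to 233 CPM with EGF and 139.6 to 150.5 CPM with NRG-1 at 1 hour and at 114 to 138 and 119.7 to 130.5 CPM at 4 hours (interaction −0.54, SE 0.08, adjusted *P* = 0.00048, edgeR). *RHOB* was not called by limma on TPM.

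*THBS1*, the matricellular protein thrombospondin-1, was at 58.3 to 72.9 CPM with EGF and 34.4 to 42.3 CPM with NRG-1 at 1 hour, and had 4-hour means of 41.1 ± 6.06 and 41.0 ± 6.34 CPM (SD, n = 4). Its interaction was −0.78 (SE 0.17, adjusted *P* = 0.0196, edgeR), and became 0.0538 in adjusted *P* without NRG-1 1 hour batch 1 replicate 2 and 0.0508 without NRG-1 4 hours batch 2 replicate 1. *ITPRIP* (−0.83, SE 0.15, adjusted *P* = 0.0025) and the zinc finger gene *ZNF217* (−0.71, SE 0.11, adjusted *P* = 0.000327) were higher with EGF at 1 hour, by 0.76 and 0.54, with 4-hour differences of −0.07 and −0.17 that did not pass. *THBS1*, *ITPRIP*, and *ZNF217* were not called without the batch term, *THBS1* and *ZNF217* were not called by limma on TPM, and *ITPRIP* was called in 1 of the 3 limma fits.

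*CDKN1B*, the cyclin-dependent kinase inhibitor p27, fell with both ligands, to 36.8% of its 1-hour mean with EGF and 46.4% with NRG-1, from 201, 197, 169, and 169 CPM and from 159.6, 160.3, 157, and 169 CPM. At 4 hours it was at 66.4, 68.4, 67.0, and 69.2 CPM with EGF and at 74.2, 71.0, 77.0, and 77.3 CPM with NRG-1, without overlap and under the CSS range of 110.3 to 122 CPM. The interaction was −0.33 (SE 0.07, adjusted *P* = 0.0122, edgeR). Its adjusted *P* was 0.0508 without EGF 1 hour batch 1 replicate 1 and 0.0524 without NRG-1 4 hours batch 2 replicate 2, and it was not called without the batch term, with the 16 libraries alone, or by limma on TPM.

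Beyond the named genes, *COL13A1* (−1.39, adjusted *P* = 0.0442) and *TINAGL1* (−1.60, adjusted *P* = 0.0464) passed both thresholds at group means of at most 0.269 and 0.725 CPM. *WEE1*, the kinase that inhibits CDK1, and *ELF3*, an epithelial ETS factor, are mentioned after their values were seen, for their small adjusted *P*. *WEE1* fell from 74.7 to 29.4 CPM with EGF and from 55.4 to 34.5 CPM with NRG-1 (group means, interaction −0.66, adjusted *P* = 0.000111, edgeR). *ELF3* fell from 61.8 to 35.3 CPM and from 41.7 to 35.1 CPM (−0.56, adjusted *P* = 0.000163, edgeR).

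In the 18 gene lists, 186 of 194 listed genes were tested. Of these, 11 were called in the positive and 9 in the negative direction, and the median interaction was −0.02. Over all 16995 genes, 26 and 60 were called and the median was 0.01. The lists were chosen with earlier results of these data known, so these counts describe the lists and test nothing. The lists of genes induced by growth factors went both ways. Of the 6 EGR factors and NAB corepressors, 2 were called in the positive direction and 0 in the negative (median 0.67). Of the 8 AP-1 subunits, *JUNB* was called in the positive and *FOSB* and *ATF3* in the negative direction (median −0.24). Of the 23 other immediate early genes, *IER2*, *KLF10*, and *MYC* were positive and *NR4A1*, *KLF6*, and *RHOB* negative (median −0.18).

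*FOS*, the founding immediate early gene, did not pass in these 8 AP-1 subunits. It is mentioned after its values were seen. Its mean fell from 140 to 33.2 CPM with EGF and from 145 to 15.9 CPM with NRG-1, with an interaction of 1.13 (adjusted *P* = 0.294, edgeR). In batch 1 alone it was called (1.51, adjusted *P* = 1.31e-05), and in batch 2 alone its interaction was 1.05 (unadjusted *P* = 0.0386, edgeR).

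Among genes that act back on the pathway, 1 of 9 MAP kinase phosphatases (*DUSP6*), 1 of 3 ZFP36 factors (*ZFP36*), and 1 of 10 receptor and RAS feedback inhibitors (*ERRFI1*) were called, the first 2 in the positive and the last in the negative direction. The other 9 feedback inhibitors, among them the Sprouty and SPRED genes that restrain RAS and the ubiquitin ligase *CBL*, had interactions from −0.16 to 0.16. None of the 3 PEA3 factors was called. *ETV4* rose from 0.166 ± 0.0701 to 11.0 ± 0.500 CPM with EGF and from 0.110 ± 0.0525 to 11.0 ± 0.585 CPM with NRG-1 (SD, n = 4), with an interaction of −0.59 (SE 0.38, adjusted *P* = 0.984, edgeR).

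Of the 10 tested SRF and YAP target genes, *CYR61* was called and no other member passed. All 10 estimates were negative, against 8072 of 16995 over all genes, and the median was −0.24. Some were small, such as *TPM1* (−0.07) and *TAGLN* (−0.08). The largest estimate was in *CTGF* (CCN2), a paralog of *CYR61*, at 8.09, 7.32, 7.87, and 8.66 CPM with EGF and at 1.06, 1.20, 3.67, and 3.89 CPM with NRG-1 at 1 hour. By 4 hours it was at 0.0228 to 0.0504 and at 0.0133 to 0.0919 CPM, a few counts per library, and its interaction of −2.25 (SE 0.93) did not pass (adjusted *P* = 0.641, edgeR). Limma on TPM called it in the same direction in all 3 fits (adjusted *P* from 1.88e-05 to 0.00205). Its estimate was −2.04 with a pseudocount of 0.1 and −1.50 with 1. At so few counts the pseudocount shapes the 4-hour values, so these fits cannot separate a different fall from the 1-hour difference. The higher level with EGF at 1 hour did pass (1.88, SE 0.22, adjusted *P* = 3.07e-06, edgeR).

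The 14 FOXO-linked and growth arrest genes held *TXNIP* and *ARRDC4* in the positive and *CDKN1B* in the negative direction (median −0.03). Of the 15 androgen-responsive genes, *ELL2* was called (median 0.00). No gene was called among 15 genes of the G1/S transition and replication (largest estimate *E2F1*, −0.20, adjusted *P* = 0.879), 15 of ribosome biogenesis (*NOP56*, 0.23, adjusted *P* = 0.407, median 0.08), 9 of the ATF4 response (*SESN2*, −0.30, adjusted *P* = 0.907), 14 proteases, matrix, and adhesion genes (*PLAU*, −1.29, adjusted *P* = 1, at most 0.137 CPM in any library), and 10 NF-κB feedback genes and cytokines (*CXCL8*, −1.20, adjusted *P* = 0.867). *CXCL8*, the neutrophil chemokine interleukin-8, was higher with EGF at 1 hour (1.17 to 2.27 CPM against 0.353 to 0.881 CPM, difference 1.65, SE 0.31, adjusted *P* = 0.00207, edgeR), and its interaction was called by limma on log2(TPM + 1) (−0.84, adjusted *P* = 0.00296).

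None of the 4 ERBB receptors had an interaction that passed. *EGFR* rose with both ligands, from 33.7, 35.6, 28.8, and 23.6 CPM to 101, 97.3, 84.1, and 71.4 CPM with EGF and from 32.6, 24.4, 27.8, and 19.4 CPM to 90.1, 73.4, 71.4, and 51.9 CPM with NRG-1. The interaction was 0.09 (SE 0.21, adjusted *P* = 1, edgeR). *ERBB2* rose to 159% and 157% of its 1-hour mean (0.02, SE 0.14), and *ERBB3* fell to 74.2% and 83.8% (−0.18, SE 0.14). *ERBB4* was at most 0.183 CPM in any of the 16 libraries, and its estimate of 0.52 had an SE of 0.79.

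Of 8 EGF family ligands, 6 were tested and none passed (median −0.35). *HBEGF*, the heparin-binding ligand of EGFR, fell from a mean of 55.6 to 34.6 CPM with EGF and from 35.7 to 19.5 CPM with NRG-1 (0.20, adjusted *P* = 0.869, edgeR), and *BTC*, betacellulin, was at most 0.564 CPM (−0.94, SE 0.37, adjusted *P* = 0.596, edgeR).

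The 86 called genes had the same sign of the interaction in both batches, 67 of them being larger in batch 1, and for 0 of the 86 did the interaction differ between batches at an adjusted *P* below 0.05 (edgeR). At an unadjusted *P* below 0.05 it differed between batches in 19 of the 86 (22.1%), against 298 of all genes (1.75%), and 17 of the 19 were larger in batch 1. Among the 19, *KLF6* had −1.09 in batch 1 and −0.49 in batch 2 (unadjusted *P* = 0.000258), *CYR61* −2.04 and −1.26 (0.00127), and *TXNIP* 0.28 and 0.75 (0.00375), by edgeR. In batch 1, *EGR1* had an interaction of 3.42 and *JUNB* of 1.34, and in batch 2 they had 2.86 and 0.98. When each batch was fitted alone, 135 genes were called in batch 1 and 0 in batch 2, where 376 genes had an unadjusted *P* below 0.05. The signs over both batches are not independent of the calls, which used both. Genes called in batch 1 alone were therefore also read in the separate libraries of batch 2, an alternative chosen after the data were seen. Of these 135 genes, 132 (97.8%) had the same sign in batch 2, against 59.3% of all genes, and 66 (48.9%) had the same sign with an unadjusted *P* below 0.05, against 280 of all genes (1.65%). Their median size was 0.61 in batch 1 and 0.35 in batch 2. Among them, in batch 2 alone, *TUFT1* had an interaction of −1.04 (unadjusted *P* = 6.99e-06), *CYR61* of −1.26 (1.00e-05), *FOSB* of −2.28 (1.08e-05), *JUNB* of 0.98 (2.51e-05), *ZFP36* of 1.03 (0.000593), and *EGR1* of 2.86 (0.00277), all by edgeR.

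**Figure D5:**
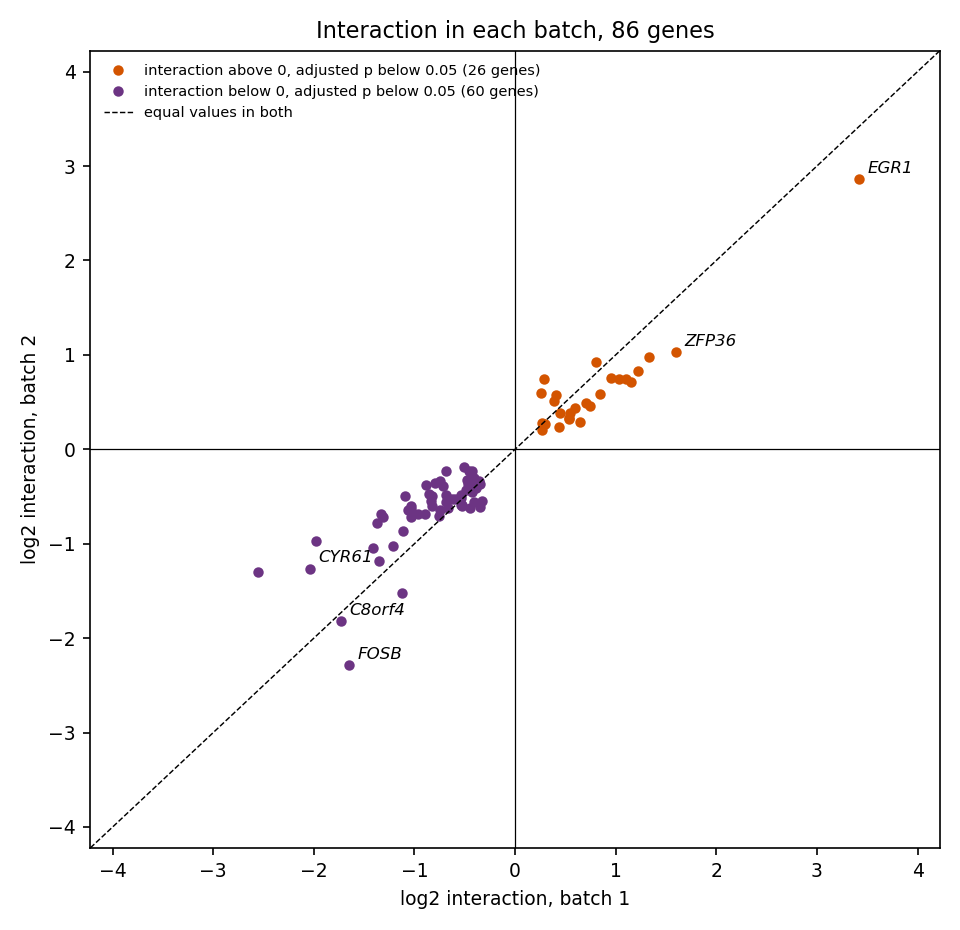
Log2 interaction in batch 1 (x axis) and in batch 2 (y axis) for the 86 called genes, each from a fit with separate group means in each batch. All 86 have the same sign in both batches, and 67 are larger in size in batch 1.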

How the data were processed

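RNA of LNCaP cells was poly(A)-selected and sequenced with strand recorded. The authors trimmed reads with Trimmomatic 0.36 and estimated gene values with RSEM around STAR 2.7.0f, against hg19 per the submitters' processing notes; the annotation is not given in the sources used here. The authors deposited, for every gene in each library, an RSEM expected count on which no scaling by depth was done, and TPM, which RSEM corrects for length and scales to a common total. Replicates were not pooled, and 0 columns of other samples were left out.

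Groups and batches were taken from the sample labels. Expected counts were rounded. A gene was tested if 3 or more libraries held 5 or more counts of it, which left 16995 of 25498. A single edgeR 4.0.16 quasi-likelihood model (R 4.3.3) with TMM scaling and terms for group and batch was fitted to all 32 libraries. The interaction and its components were contrasts of this model, with Benjamini-Hochberg adjustment over all genes of a contrast. Genes at an adjusted *P* below 0.05 were called, and DEGs also had a log2 value beyond 1. Counting error is small at this depth for all but the lowest genes, and the spread between libraries sets the precision. The fit was also run on simulated counts that held no batch difference and no library apart from its group. That run therefore says nothing about either.

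Named genes were those past both thresholds with a highest group mean of at least 1 CPM, then the largest of the other called genes up to 30 in all, the member of each list with the largest interaction and every called member, and the 4 ERBB receptors. Some listed marker genes are not reported here. The comparison, lists, and rule were chosen with earlier results of these data known. Alternatives were DESeq2 1.42.0, its size factors in edgeR, no filter, a stricter filter of 10 counts in all libraries, no batch term, a replicate block, group by batch means, only the 16 libraries, each batch alone, limma 3.58.1 on log2 TPM (pseudocounts 1 and 0.1), and each library left out in turn. The sign and size of the interaction in each batch and the reading of batch 1 calls in batch 2 were added after the data were seen.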

Additional observations from a re-analysis of the deposited data

Results flagged for a closer look

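In 5 of the 204 groups of 4 libraries examined for the named genes, 1 library lay far from the other 3 by Dixon's criterion, where chance at 1 in 20 gives about 10. *TUFT1* was at 54.8 CPM in NRG-1 4 hours batch 2 replicate 2, against 51.6 to 52.0 CPM in the others. *DNAJB4* was at 29.2 CPM in the same library, against 25.2 to 25.4 CPM. *GADD45B* was at 2.74 CPM in EGF 4 hours batch 1 replicate 2, against 3.35 to 3.46 CPM. *NUAK2* was at 2.00 CPM in NRG-1 1 hour batch 2 replicate 2, against 2.47 to 2.57 CPM, and *NOP56* at 271 CPM in NRG-1 4 hours batch 2 replicate 1, against 301 to 305 CPM.

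The change from 1 to 4 hours differed between the ligands, past both thresholds of the edgeR interaction test, in 12 named genes. On the log2 scale, the difference was 3.14 in *EGR1*, 1.31 in *ZFP36*, 1.16 in *JUNB*, and 1.05 in *DUSP6*. It was −2.05 in *FOSB*, −1.68 in *C8orf4*, −1.66 in *CYR61*, −1.32 in *ATF3*, −1.31 in *FHL2*, −1.23 in *TUFT1*, −1.17 in *GBP1*, and −1.004 in *DNAJB4*.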

How the results depend on the processing

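The 38 called genes among the named genes had the same sign in all of the 29 alternatives that gave a value (28 for *EGR3*, *FHL2*, and *LURAP1L*, which had none with 10 counts in every library). All 38 lost the call with batch 2 alone. Of these, 16 were called in every other alternative, 9 were lost in 1 to 3 others, and 13 in 4 or more. Every one of the 86 called genes that had a value under an alternative had the same sign there. Of the named genes that were not called, *EGFR* (−0.04 to 0.19) and *ERBB2* (−0.06 to 0.08) changed sign among the alternatives. *CTGF* at 4 hours and *ERBB4* held few counts per library, and their values carry large standard errors.

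Over both directions, 86 genes were called at an adjusted *P* below 0.05 (26 positive and 60 negative), 14 were DEGs (4 and 10), and 20 list genes were called (11 and 9). DESeq2 called 45 positive and 97 negative genes (85 of the 86 shared, against 31 without a batch term, 55 with the 16 libraries alone, 63 with batch 1 alone, and 37, 30, and 36 in the 3 limma fits in the order given below). Group by batch means gave 44 and 91. Without a batch term, 9 and 22 genes were called, 5 of them negative DEGs, and 7 list genes were positive. The 16 libraries alone gave 14 positive calls. Batch 1 alone gave 41 and 94 calls, 11 and 18 DEGs, and 15 negative list genes. Batch 2 alone gave 0 calls, 0 DEGs, and 0 list genes in either direction by edgeR. There, 376 genes had an unadjusted *P* below 0.05, fewer than 1 in 20. Limma on log2(TPM + 1) gave 10 positive calls and 4 positive list genes, on log2(TPM + 0.1) 6 and 35 calls and 4 positive list genes, and on log2(TPM + 1) over the genes of the count filter 5 positive list genes. The cause of these differences was not tested.

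Leaving out each library in turn gave 17 to 25 positive and 43 to 74 negative calls, 3 to 5 and 5 to 12 DEGs, and 10 to 11 and 7 to 10 list genes. With the replicate block, 51 positive and 109 negative genes were called, including all 86, and 14 negative list genes. For libraries of the same number, deviations from the group mean correlated with *r* from 0.168 to 0.505 in 24 comparisons, but after batch means were removed *r* exceeded 0.1 in 6 of 12 comparisons, which were all 6 of batch 2 (0.133 to 0.380), and in none of batch 1 (−0.057 to 0.067). The labels give no source shared by libraries of the same number other than the batch.

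The Pearson *r* between the 2 time courses was 0.504 with no filter on low counts, 0.946 with at least 10 counts in every library, 0.698 in batch 1, 0.639 in batch 2, and 0.924, 0.889, and 0.942 with limma on log2(TPM + 1), log2(TPM + 0.1), and log2(TPM + 1) over the genes of the count filter. In the same order, Spearman's *ρ* was 0.587, 0.907, 0.726, 0.709, 0.904, 0.896, and 0.888, and the slope was 0.520, 1.06, 0.750, 0.660, 1.05, 0.977, and 1.08.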
